A study of Mus musculus with 46 samples.

Results

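Chemokines are small secreted proteins that steer leukocytes along a gradient through receptors on the cell surface. A compact cluster on mouse chromosome 11 holds Ccl2, Ccl7, Ccl11, Ccl12 and Ccl8, which lie next to each other and arose by duplication. Ccl2, Ccl7 and Ccl12 bind CCR2, the receptor that draws inflammatory monocytes out of the bone marrow and into tissue. Ccl11, or eotaxin, attracts eosinophils through CCR3, and mouse Ccl8 is best known as a ligand of CCR8. Cx3cl1, or fractalkine, is made as a membrane-anchored protein and can be shed, and its receptor CX3CR1 marks patrolling monocytes and many tissue macrophages. In tumors these genes are read mostly for the supply of monocytes that mature into macrophages.

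Here 8 genes were followed, namely the 5 chemokines of that cluster, Ccr2, Cx3cl1 and Cx3cr1, of 48795 genes in a table of RNA-seq values from MC-38 mouse colon carcinoma. All 8 were found in the table and entered each test, though 4 of them entered the comparisons with cultured cells only through the tumors. The genes were chosen by name, with Ccl8 selected on its measured response after a single antibody dose, so the values of that contrast are given below as a description with no test.

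The samples were 3 cultures of the MC-38 line, labelled Cell line, and bulk tumors grown under the skin of adult female C57/BL6NTac mice. There were 3 Baseline tumors taken before treatment, and wild-type mice then received muDX400, an antibody to mouse PD-1, at 5 mg/kg or an isotype control. Tumors were collected after 1 dose on day 11 after implantation and after 2 doses on day 15, with 5 tumors in each of the 4 groups. A separate study compared 10 tumors labelled PD-1cKO, from Rosa26-creERT2 mice with loxP sites around part of Pdcd1, with 10 tumors labelled WT from littermates, and all 20 of these mice received tamoxifen at 40 mg/kg. The Rosa26 promoter drives the Cre broadly across the cell types of the host, and the extent of the deletion is not measured here. The labels place the tamoxifen tumors at day 28 and do not state that each tumor of any group came from its own animal, so the p-values measure the spread between these samples.

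Values are FPKM, which adjust fragment numbers for the length of the gene and the size of the library. The paper gives a range of mapped reads over all samples, but the number behind each library is unknown. The libraries summed to between 440865 and 1224462 FPKM. In the tamoxifen study short non-coding RNAs took between 30.2% and 66.5% of the summed FPKM, with medians of 54.0% in the libraries labelled PD-1cKO and 45.3% in WT, against at most 0.075% in every other library. How far this affected the FPKM of other genes cannot be told without read numbers. Levels of the antibody study and of the tamoxifen study are therefore not taken to be on a common scale. One library stood apart: isotype day 11 replicate 1 had 54.6% of its FPKM on mitochondrial genes, against a group median of 3.94%. Pdcd1 could not check the deletion in this table. Its gene-level FPKM, which includes exons outside the deleted part, ran from 5.05 to 19.9 with a median of 8.29 in the libraries labelled PD-1cKO and from 1.71 to 7.02 with a median of 3.01 in WT. Libraries are named by their labels.

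The 5 chemokine genes are on the plus strand of chromosome 11 in GRCm38, in the order Ccl2 (82035571 to 82037453), Ccl7 (82045712 to 82047525), Ccl11 (82057823 to 82062955), Ccl12 (82101845 to 82103400) and Ccl8 (82115185 to 82116799). Counted from the start of Ccl2, the others begin at 10.1, 22.3, 66.3 and 79.6 kb, and each has 3 exons. None of the 50-base stretches of their annotated transcripts occurred in a transcript of another gene, so reads inside the annotated transcripts of these near relatives are distinct at that length. The predicted gene Gm17268 lies on the other strand across Ccl2 and was listed at 0 in all 46 samples. Ccr2 (chromosome 9, 124101950 to 124113557, plus strand) and Cx3cr1 (chromosome 9, 119901616 to 120069879, minus strand) shared 1.91% and 1.06% of such stretches with other genes. Cx3cl1 is on chromosome 8 at 94772009 to 94782427, plus strand.

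Upstream sequence was at hand for 5 of the 8 genes, from RefSeq on GRCm38.p6. The windows of Ccl8 and its nearest neighbor Ccl12 are printed because these adjacent genes differed in response. They cover chr11:82114935-82115184 and chr11:82101595-82101844 on the plus strand, 250 bases that end just before the transcription start, and the capitals mark the TATA box letters TATAAA.
Ccl8: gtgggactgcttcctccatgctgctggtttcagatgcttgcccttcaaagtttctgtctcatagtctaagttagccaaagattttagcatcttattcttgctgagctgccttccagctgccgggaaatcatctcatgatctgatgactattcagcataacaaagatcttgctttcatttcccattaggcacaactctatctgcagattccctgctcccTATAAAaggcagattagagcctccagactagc
Ccl12: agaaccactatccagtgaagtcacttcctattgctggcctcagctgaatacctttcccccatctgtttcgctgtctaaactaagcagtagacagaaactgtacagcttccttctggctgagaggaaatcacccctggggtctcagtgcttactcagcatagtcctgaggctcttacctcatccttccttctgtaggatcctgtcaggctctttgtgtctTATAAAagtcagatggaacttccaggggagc

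Both windows held TATAAA at nearly the same place, its first base 32 bases upstream of the start in Ccl8 and 31 in Ccl12, and 12.4% of 32851 promoter windows of this length held these letters on either strand. Set base for base from the start site, the windows had the same letter at 90 of 250 positions (36.0%), and their longest shared run was 8 bases, ggaaatca, beginning 128 bases upstream in each. Neither window, nor those of Ccr2, Cx3cl1 and Cx3cr1, held the GAS letters TTCNNNGAA, the ISRE core GAAANNGAAA or the letters GGGNNNTCC, used here for NF-kB, on either strand, which 7.02%, 2.98% and 15.2% of all such windows did. Only these spacings were searched, so other forms of the sites, longer NF-kB sites among them, were not looked for. The Cx3cl1 window also held TATAAA, from 6 to 1 bases upstream of the start. TATAAA was added to the search after the windows had been read.

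In cultured MC-38 cells only part of the set was present. Ccl2 was the most abundant of the 8 genes there, at 64.4, 65.2 and 70.7 FPKM in the 3 cultures, and Ccl7 stood at 27.2, 24.8 and 28.1. Cx3cl1 was at 7.20, 7.25 and 7.56 and Ccl8 at 2.12, 1.2 and 1.69. Ccl12, Ccr2 and Cx3cr1 did not reach 0.1 FPKM in any culture. The tumor line itself thus carried the RNA of the monocyte attractants Ccl2 and Ccl7, and both receptors were near 0.

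Against the cultures, isotype tumors of day 15 were higher in Ccl8, Cx3cl1 and 4 genes that were low in culture, while Ccl2 and Ccl7 were not called. The test was limma's moderated test on log2(FPKM + 0.1), and a gene was called at a Benjamini-Hochberg adjusted p below 0.01 and a change of at least 2-fold. On that log2 scale Ccl8 rose by 4.52 (SE 0.18, adjusted p = 6.18e-08 with limma) and Cx3cl1 by 1.74 (SE 0.16, adjusted p = 1.86e-05 with limma), where 21.3% of 15199 genes tested passed. Ccl12, Cx3cr1, Ccr2 and Ccl11 had culture means of 0.0559, 0.0174, 0.0229 and 0.352 FPKM, under the filter of 0.5, and entered the test only through the tumors, so that a difference was built in. Their means in the isotype tumors were 25.1, 14.1, 6.45 and 3.86 FPKM, given as a description. Ccl2 and Ccl7 gave 0.00 (95% confidence interval -0.34 to 0.33) and 0.26 (-0.29 to 0.81), and their tumor values lay on both sides of the cultures. Of the 11 macrophage genes, 4 reached 1 FPKM on average in the cultures (Mertk 6.90, Apoe 2.83, Csf1r 1.75 and Cd68 1.06), whereas Adgre1, Fcgr1, C1qa, C1qb, C1qc and Mrc1 had medians under 0.05. The 11 genes summed to a median of 12.6 FPKM there and 1840 in these tumors. Their part in the result was not tested, and in bulk tissue fewer cells of a type and less RNA per cell cannot be told apart.

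Baseline tumors were also above the cultures in Ccl8, by 3.83 on the log2 scale (SE 0.26, adjusted p = 1.87e-05 with limma), and in Cx3cl1, by 1.08 (SE 0.09, adjusted p = 5.44e-05 with limma), where 15.8% of 15217 genes passed. The call of Cx3cl1 was lost with all 8 groups in 1 fit (adjusted p = 0.0804 with limma). Ccl12, Cx3cr1, Ccr2 and Ccl11 again entered only through the tumors, where their means were 19.4, 9.34, 6.80 and 1.52 FPKM. Ccl2 stood at 53.5, 46.2 and 47.7 FPKM, below all 3 cultures, a log2 difference of -0.44 (SE 0.07, adjusted p = 0.00131 with limma) that was under the 2-fold limit. Baseline tumors were also compared with isotype day 15 tumors, which served above as well. With limma 4 of the 8 genes, and 2647 of 14967 genes tested, had an unadjusted p under 0.05. Of the 8 genes 0 were called, where 0.595% of genes tested passed. Ccl11 came nearest, at 1.88, 1.75 and 0.920 FPKM in Baseline tumors against 3.10 to 4.91, a log2 difference of -1.33 (SE 0.26, adjusted p = 0.0275 with limma).

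**Figure D1:**
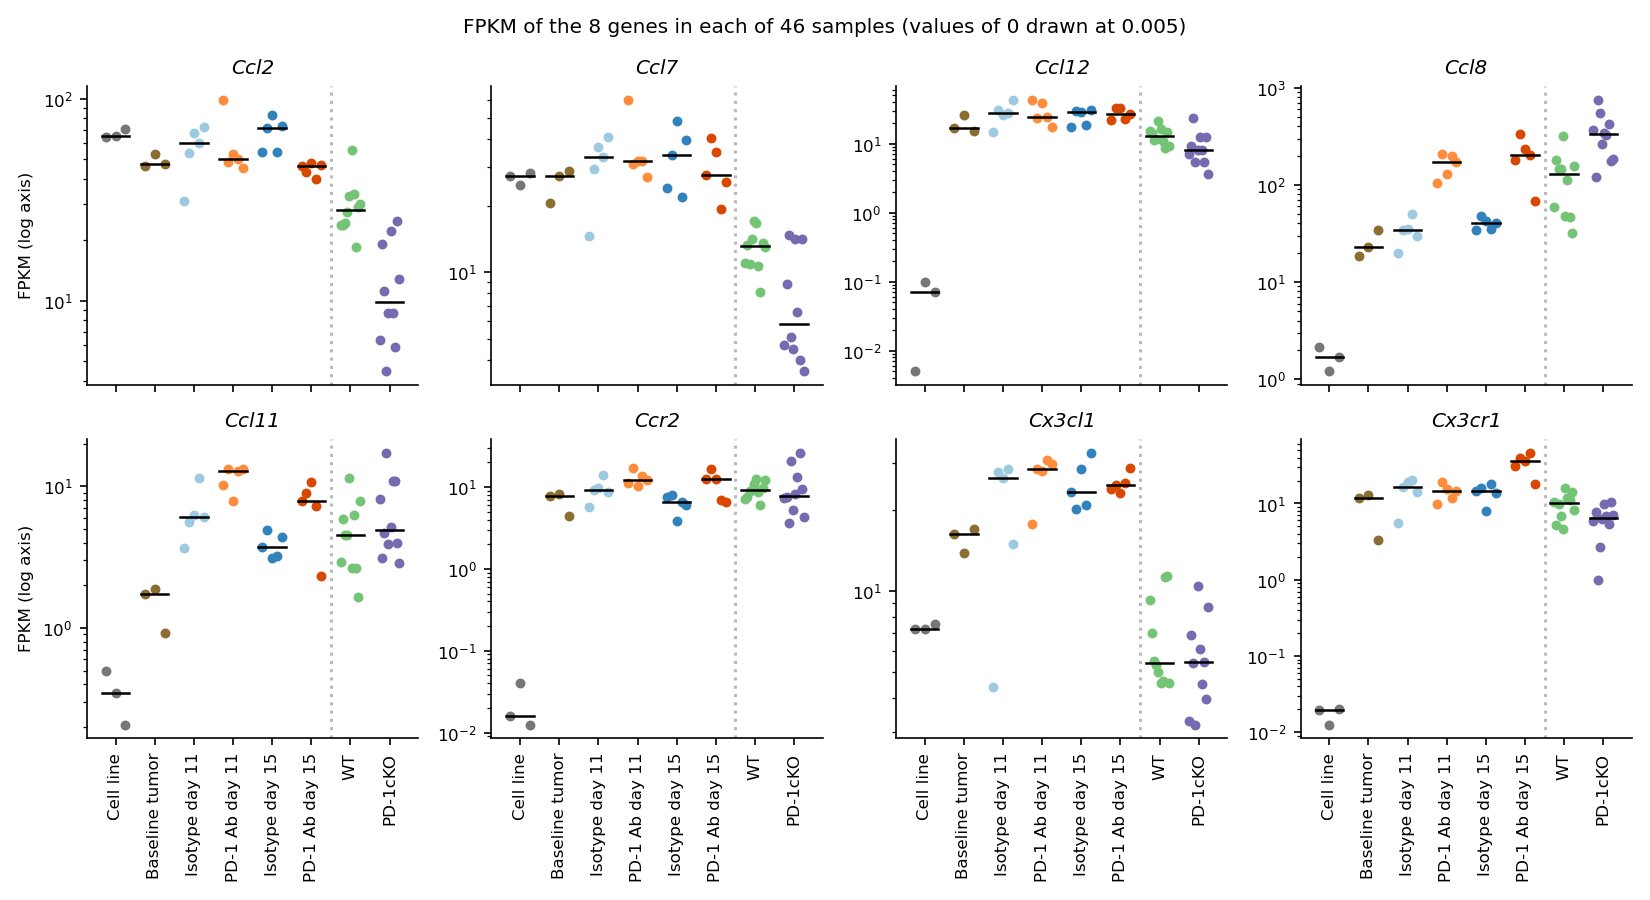
FPKM of each gene in every sample on log axes, with 1 panel per gene, 1 point per sample, a black line at the group median and a dotted line between the antibody study and the tamoxifen study, whose levels are not on a common scale. In the Ccl8 panel the PD-1 Ab tumors sit above their isotype tumors at both days, while in the Ccl2 panel the tumors labelled PD-1cKO reach down to 4.46.

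After 1 dose of antibody Ccl8 stood apart from its neighbors, which is the pattern it was selected on. Its values were 105, 208, 130, 197 and 172 FPKM in PD-1 Ab tumors and 19.8, 34.2, 34.8, 50.2 and 29.9 in isotype tumors of day 11. All 5 treated tumors lay above every isotype tumor. The log2 change of 2.28, or 4.84-fold, compares with 0.85 for Ccl11, 0.64 for Cx3cl1, 0.47 for Ccr2, 0.25 for Ccl7, 0.05 for Ccl2, 0.04 for Ccl12 and 0.01 for Cx3cr1. Isotype replicate 1, the library high in mitochondrial genes, had 4.39 FPKM of Cx3cl1 against 15.0 to 28.5 in the other isotype tumors. With single libraries left out, the change of Cx3cl1 ran from 0.16 to 0.83.

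The median change of all 14556 genes tested at that time was 0.26, and scaling each library by the median of its ratios to the mean library brought it to 0.01. On that scale Ccl8 changed by 2.02 and Ccl11 by 0.60, and Ccl2, Ccl12 and Cx3cr1 stood at -0.21, -0.21 and -0.25, so the sign of those 3 turned. Across all genes limma called 0 of 14556 (0%), with 895 at an unadjusted p under 0.05, and 7 without isotype replicate 1. Nothing is read here from the count over the 8 genes.

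After 2 doses Ccl8 and Cx3cr1 were called higher and no member was called lower, 2 of 8 genes where 5.3% of 15062 genes passed. Ccl8 had 180, 331, 236, 202 and 68.1 FPKM in PD-1 Ab tumors of day 15 and 33.9, 47.4, 42.3, 35.1 and 40.0 in isotype tumors. Every treated tumor was above every isotype tumor, the lowest being PD-1 Ab replicate 5. The rise was 2.19 on the log2 scale, or 4.57-fold (SE 0.33, adjusted p = 0.00156 with limma). It was called in each of the 20 alternative settings, with a range of 1.98 to 2.55.

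The CCR2 ligands were not called. Ccl2 stood at 46.6, 43.5, 48.2, 40.2 and 46.9 FPKM after 2 doses against 54.5, 71.8, 83.3, 54.7 and 72.9 with isotype. All 5 treated tumors were thus below every isotype tumor, and they were also more alike, with a coefficient of variation of 7.17% against 18.6%. The log2 difference of -0.56 (95% confidence interval -0.84 to -0.29, adjusted p = 0.00962 with limma) was short of the 2-fold limit, so Ccl2 was not called. Over the 20 alternative settings the difference ran from -0.63 to -0.37, with adjusted p-values of 0.00707 to 0.301 from limma.

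Ccl7, a broader monocyte attractant, had 27.4, 40.3, 35, 19.4 and 25.7 FPKM after antibody and 24.0, 33.8, 48.3, 21.8 and 39.5 with isotype, which overlapped. Ccl12, a CCR2 ligand that mice carry beside Ccl2, had 21.9, 32.4, 32.6, 22.4 and 27.3 FPKM against 17.6, 29.8, 29.2, 18.4 and 30.7. The differences were -0.16 (-0.69 to 0.37) and 0.14 (-0.28 to 0.56), with adjusted p-values of 0.651 and 0.614 from limma. The interval of Ccl12, the neighbor of Ccl8, ended at 0.56, and that of Ccl8 itself was 1.47 to 2.91.

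Eotaxin was less clear. Ccl11 had 7.88, 9.00, 10.7, 7.23 and 2.32 FPKM in treated tumors and 3.71, 4.91, 3.10, 3.23 and 4.37 in isotype tumors. Replicates 1 to 4 were above and replicate 5 below every isotype tumor, and replicate 5 was also the lowest treated tumor for Ccl8. The log2 difference was 0.79 (SE 0.34, adjusted p = 0.112 with limma), and without replicate 5 it was 1.16 with an adjusted p of 0.000639. The markers of eosinophils, the cells that Ccl11 attracts, were low here, with Epx and Ear1 under 0.05 FPKM at the median in both groups and the 7 genes summing to a median of 4.30 FPKM after antibody and 1.83 with isotype. Their part in the values of Ccl11 was not tested.

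Of the receptors, Cx3cr1 had 31.2, 39.3, 35.8, 46.1 and 17.9 FPKM after 2 doses and 14.7, 15.8, 8.04, 17.9 and 13.9 with isotype. Replicates 1 to 4 were above every isotype tumor, and replicate 5 lay at the top of the isotype range. The rise was 1.25 on the log2 scale (SE 0.26, adjusted p = 0.00726 with limma), and the call was lost in 12 of the 20 alternative settings, with adjusted p-values of up to 0.0445, leaving out single libraries of either group included. Its ligand Cx3cl1 had 24.0, 24.8, 23.2, 25.1 and 28.7 FPKM against 23.3, 20.2, 28.3, 20.9 and 32.6, a difference of 0.02 (-0.27 to 0.32). Ccr2 had 12.5, 16.8, 12.7, 6.96 and 6.58 FPKM against 7.58, 8.07, 3.89, 6.66 and 6.06, a difference of 0.72 (SE 0.28, adjusted p = 0.0746 with limma) with overlapping groups.

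Of 30 other chemokine and chemokine receptor genes, 22 were tested at day 15 and 7 rose, with a median log2 difference of 1.18 against -0.04 over all genes tested. Among them were Ccl3, Ccl4 and Ccl5, which attract T cells and monocytes and rose by 2.33, 2.24 and 2.45. Ccl21a, which guides T cells and dendritic cells through CCR7, rose by 3.02, Xcr1, a receptor of cross-presenting dendritic cells, by 1.98, and Ccrl2, an atypical receptor, by 1.15. Ccr8, the receptor of mouse Ccl8, had a median of 1.29 FPKM after antibody and 0.296 with isotype, a difference of 2.05 (SE 0.50, adjusted p = 0.0147 with limma).

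Several marker lists differed beside these values at day 15. The macrophage genes rose in 9 of 11, and their summed FPKM ran from 2650 to 8570 after antibody and from 1380 to 2070 with isotype. Of the classical monocyte genes 1 of 7 rose (Ly6c2), with sums of 446 to 574 against 382 to 470, and of the nonclassical monocyte genes 0 of 6 were called, with sums of 35.7 to 55.8 against 27.4 to 34.3. The cultured line itself had median sums of 211 and 18.6 FPKM on these lists, with means of 180 for Fn1 and 34.2 for Vcan. Fn1 had means of 353 FPKM after antibody and 352 with isotype. Neither sum is therefore read as monocyte RNA. The T cell genes rose in 7 of 7 and the interferon-gamma response genes in 7 of 8. Of the adipose genes 1 of 5 rose (Plin1), with sums of 39.2 to 831 FPKM against 15.4 to 126 and a median log2 difference of 2.75, and of the endothelial genes 1 of 5 (Pecam1), with sums of 24.0 to 88.8 against 19.9 to 24.0. Of the skeletal muscle genes 1 of 5 rose, with sums of 2.17 to 69.0 FPKM against 0.945 to 1.72, of the neutrophil genes 1 of 4 fell, and of the fibroblast, NK cell and epidermis genes none were called by limma, with 3, 3 and 0 at an unadjusted p under 0.05. Over all genes tested, 5977 of 15062 had an unadjusted p under 0.05 with limma. The part of any of these lists in the change of Ccl8 or Cx3cr1 was not tested.

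**Figure D2:**
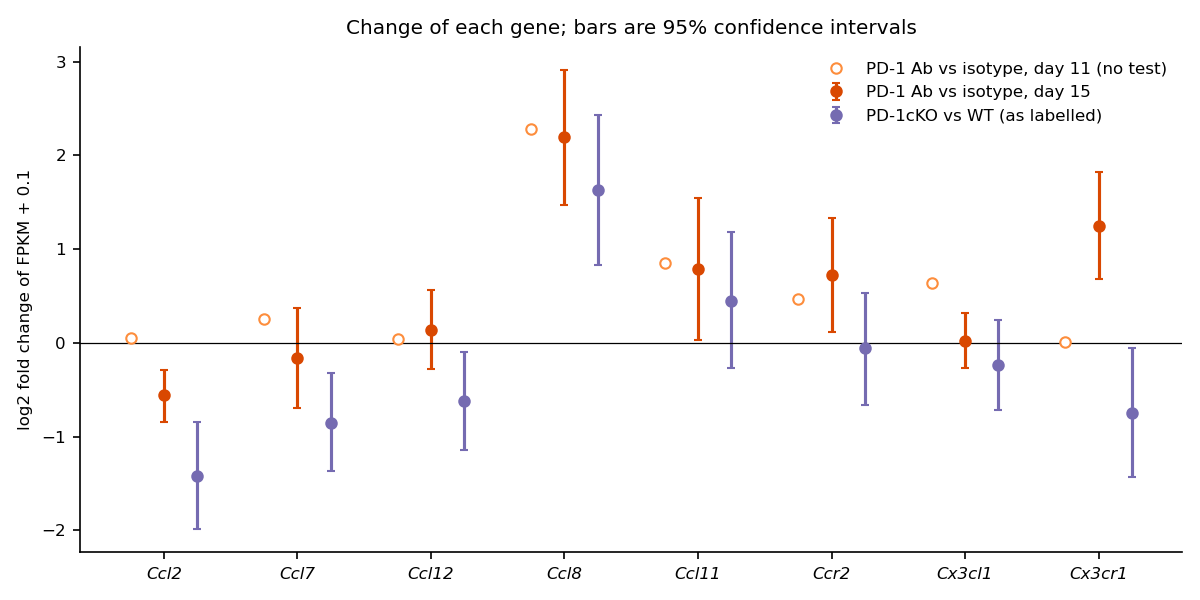
Log2 fold change of FPKM + 0.1 for each gene in 3 comparisons, with filled symbols and 95% confidence intervals where a test was made and open symbols for the day 11 contrast that Ccl8 was selected on. Ccl8 lies above 0 in all 3, at 2.28, 2.19 and 1.63, and Ccl2 lies below 0 at day 15 and in PD-1cKO as labelled, at -0.56 and -1.42.

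In the tamoxifen study Ccl8 rose and Ccl2 fell in the tumors labelled PD-1cKO, 2 of 8 genes where 8.07% of 15075 genes passed. The median change of all genes tested was -0.20 and became -0.04 with median-of-ratios scaling, which is given beside the main value. Ccl8 ran from 120 to 755 FPKM with a median of 334 in the libraries labelled PD-1cKO and from 31.7 to 319 with a median of 129 in WT. Of the 10 tumors labelled PD-1cKO, 6 were above every WT tumor and the others fell in the WT range. The rise was 1.63 (SE 0.39, adjusted p = 0.00361 with limma), and 1.79 after scaling.

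Ccl2 ran from 4.46 to 24.9 FPKM with a median of 9.90 in the libraries labelled PD-1cKO and from 18.4 to 55.4 with a median of 28.2 in WT. In 7 of the 10 tumors labelled PD-1cKO it was below every WT tumor. Its fall was -1.42 on the log2 scale, or 0.375-fold (SE 0.28, adjusted p = 0.00134 with limma), and -1.26 after scaling. The calls of Ccl8 and Ccl2 held after each library had been left out in turn.

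The identifiers of the tamoxifen samples form 3 numeric runs, which were not shared evenly: the libraries labelled PD-1cKO fell 7, 1 and 2 into runs 1, 2 and 3 and the WT libraries 9 and 1 into runs 2 and 3. Run and genotype can therefore be told apart only in part. With run as a covariate Ccl8 gave 1.35 (adjusted p = 0.147 with limma) and Ccl2 -1.61 (adjusted p = 0.0282 with limma), so neither was called, and 0 genes were called in the whole table. In run 2 the single tumor labelled PD-1cKO had 427 FPKM of Ccl8 and 5.90 of Ccl2, outside the ranges of 31.7 to 319 and 18.4 to 55.4 of the 9 WT tumors of that run. In run 3 the tumors labelled PD-1cKO had 178 and 184 FPKM of Ccl8 and 24.9 and 12.8 of Ccl2, and the WT tumor had 155 and 30.

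The other CCR2 ligands lay on the side of Ccl2 without being called. Ccl7 ran from 3.55 to 14.7 FPKM with a median of 5.82 against 8.16 to 17.1 with a median of 13.1, a log2 difference of -0.85 (SE 0.25, adjusted p = 0.0126 with limma), and -0.69 after scaling. Ccl12 ran from 3.66 to 23.5 FPKM against 8.59 to 21.5, a difference of -0.62 (SE 0.25, adjusted p = 0.0505 with limma). In both genes 6 of the 10 tumors labelled PD-1cKO were below every WT tumor. Ccl11, at 2.87 to 17.2 FPKM against 1.65 to 11.5, differed by 0.45 (-0.27 to 1.18).

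The receptors and fractalkine were not called in this comparison. Ccr2 ran from 3.60 to 26.2 FPKM in the libraries labelled PD-1cKO and from 6.10 to 12.7 in WT, so the former spread both above and below the latter, and the difference of -0.06 turned to 0.10 after scaling. Cx3cr1 ran from 0.996 to 10.4 FPKM against 4.67 to 15.8, a difference of -0.75 (SE 0.33, adjusted p = 0.0700 with limma). Cx3cl1 ran from 3.19 to 10.4 FPKM against 4.54 to 11.4, a difference of -0.24 (-0.72 to 0.24).

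Of the 30 other genes of the family, 21 were tested between these groups and 5 rose, with a median log2 difference of 0.75 against -0.20 over all genes tested. These were Ccl3 (2.17-fold), Ccl4 (2.54-fold), Ccl5 (2.64-fold), Ccl6 (3-fold), a CCR1 ligand of myeloid cells, and Ccr8 (2.43-fold), which had a median of 1.28 FPKM in the libraries labelled PD-1cKO and 0.432 in WT. The macrophage genes rose in 6 of 11, with sums of 2280 to 10700 FPKM against 1330 to 2320, and the T cell genes in 7 of 7. Of the classical monocyte genes 1 of 7 rose (Chil3), with sums of 467 to 1240 FPKM against 427 to 709. Of the nonclassical monocyte genes 1 of 5 tested rose, with sums of 22.9 to 103 FPKM against 21.8 to 42.4. Of the neutrophil genes 4 of 6 rose, and of the eosinophil genes 1 of 4 rose (Siglecf). Fibroblast genes rose in 3 of 7, with sums of 1690 to 8900 FPKM against 881 to 1720, and endothelial genes in 2 of 5, with sums of 32.3 to 79.9 against 22.2 to 50.7. Of the 8 interferon-gamma response genes limma called 0, with 0 at an unadjusted p under 0.05, and of the 5 adipose genes 0, with 3. It also called 0 of 5 skeletal muscle, 0 of 3 NK cell and 0 of 2 epidermis genes, with 0 at an unadjusted p under 0.05 in each list. Over all genes tested, 7968 of 15075 had an unadjusted p under 0.05 with limma. The part of these lists in the changes of Ccl8 and Ccl2 was not tested.

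**Figure D3:**
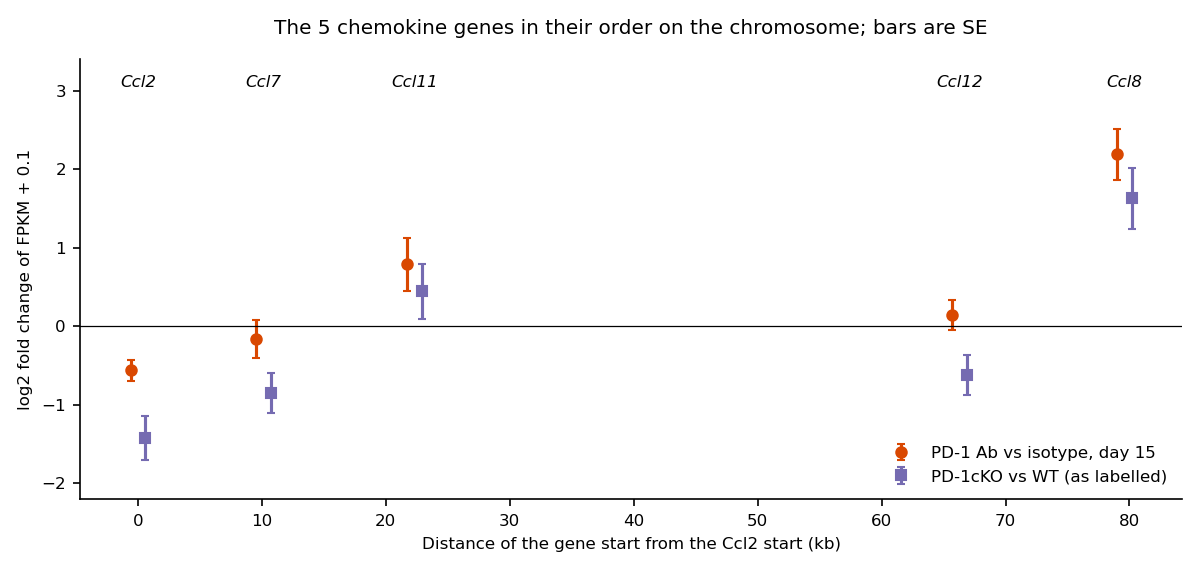
Log2 fold change of FPKM + 0.1, with bars of 1 SE, of the 5 chemokine genes at the distance of each gene start from the start of Ccl2 in kb, for PD-1 Ab at day 15 and PD-1cKO as labelled. The gene at 0 kb, Ccl2, has the lowest value and the gene at 79.6 kb, Ccl8, the highest in both comparisons, with Ccl12 at 66.3 kb near or below 0.

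The antibody change at day 15 minus the change in PD-1cKO as labelled was also tested. These changes come from separate studies that differ in day and in tamoxifen, so antibody against deletion cannot be told apart from study. The median difference over all genes tested was 0.23, and 0.03 with median-of-ratios scaling. With limma 2 of the 8 genes, and 2585 of 16404 genes tested, had an unadjusted p under 0.05. Of the 8 genes 0 were called, where 0.0914% of genes tested passed. Cx3cr1 came nearest, with a difference of 2.0 (95% confidence interval 0.92 to 3.07, adjusted p = 0.0698 with limma). For Ccl8 the difference was 0.56, with an interval of -0.71 to 1.83 that spans both signs. For Ccl2 it was 0.85 (0.00 to 1.70, adjusted p = 0.315 with limma).

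The balance within the cluster was described by the ratio of Ccl8 to Ccl2 FPKM in each sample, a measure chosen after the values had been seen and given with no test. FPKM is per length, so the ratio sets the level of one gene against the other within a library, and it does not depend on the scaling of the library. Its median was 0.0239 in the cultures, 0.432 in Baseline tumors, and 0.632 and 0.622 in isotype tumors of days 11 and 15. No culture, Baseline tumor or isotype tumor reached 1, the highest being 0.831. In PD-1 Ab tumors it ran from 1.06 to 4.29 at day 11 and from 1.45 to 7.61 at day 15, in WT tumors of the tamoxifen study from 0.863 to 9.65, and in tumors labelled PD-1cKO from 6.27 to 124.

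Ccl8 made up a median of 1.67% of the summed FPKM of the 5 chemokines in culture, 25.3% in isotype tumors of day 15, 65.1% in PD-1 Ab tumors of day 15, 68.1% in WT and 90.9% in PD-1cKO as labelled. The share of Ccl2, which falls as that of another gene grows, had medians of 70.1%, 40.4%, 13.8%, 16.7% and 2.71%. The sum itself had medians of 94.3, 188 and 291 FPKM in the groups of the antibody study, and of 186 in WT and 375 in PD-1cKO as labelled, which are on another scale.

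**Figure D4:**
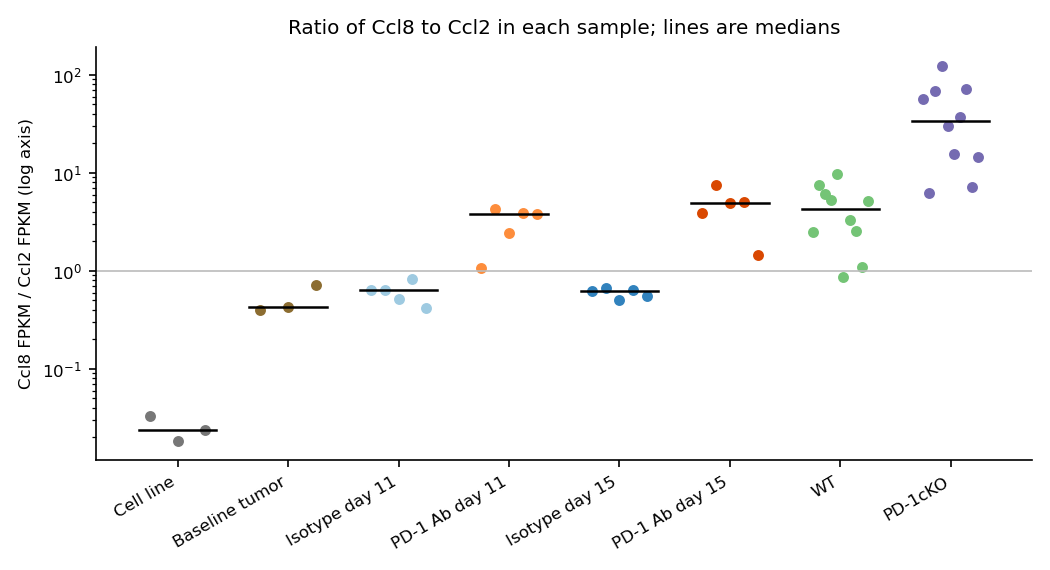
Ratio of Ccl8 FPKM to Ccl2 FPKM in each sample on a log axis, with 1 point per sample, black lines at the group medians and a grey line at 1. All cultures, Baseline tumors and isotype tumors lie below 1, and all 20 samples given PD-1 Ab or labelled PD-1cKO lie above it. WT tumors of the tamoxifen study, at 0.863 to 9.65 with a median of 4.25, lie mostly above it too.

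Variation among tumors of the same group gave a view of the genes that does not use any group difference. Over the 10 WT tumors of the tamoxifen study, 4 of the 28 pairs of genes passed a permutation test of Pearson's r of log2(FPKM + 0.1) at an adjusted p below 0.05. Ccl8 and Ccl11 went together with r = 0.95 (permutation p = 0.00014, adjusted p = 0.0039) and a Spearman rho of 0.89 (permutation p = 0.0011, adjusted p = 0.021). Leaving out the 2 tumors farthest from the Ccl8 median gave r = 0.91. Among the 10 tumors labelled PD-1cKO the pair had r = 0.64 (permutation p = 0.049, adjusted p = 0.19) and rho = 0.72 (permutation p = 0.023, adjusted p = 0.12).

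Ccl8 and Cx3cr1 went in opposite directions in WT, with r = -0.87 (permutation p = 0.0011, adjusted p = 0.015), rho = -0.88 (permutation p = 0.0015, adjusted p = 0.021) and r = -0.87 without the 2 farthest tumors. In PD-1cKO as labelled r was -0.77 (permutation p = 0.0049, adjusted p = 0.063) and rho -0.84 (permutation p = 0.0037, adjusted p = 0.052). WT replicate 5, for example, had the highest Ccl8 of its group, 319 FPKM, and the lowest Cx3cr1, 4.67, and the tumor labelled PD-1cKO with the highest Ccl8, 755 FPKM, had the lowest Cx3cr1, 0.996. Both genes rose with antibody at day 15, as given above.

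The other pairs that passed in WT joined Ccr2 to a ligand. Ccl2 and Ccr2 had r = 0.82 in WT (permutation p = 0.0022, adjusted p = 0.020), rho = 0.81 (permutation p = 0.0069, adjusted p = 0.059) and r = 0.65 without the 2 farthest tumors. Ccl7 and Ccr2 had r = 0.80 (permutation p = 0.0060, adjusted p = 0.042), rho = 0.72 (permutation p = 0.024, adjusted p = 0.096) and r = 0.64. By rank neither pair passed, and the third ligand, Ccl12, had r = 0.34 with Ccr2 (permutation p = 0.34, adjusted p = 0.64). Among tumors labelled PD-1cKO the first 2 pairs had r = -0.45 and -0.26. There the pair that passed was Ccl7 and Ccl12, with r = 0.90 (permutation p = 5e-05, adjusted p = 0.0014), rho = 0.92 (permutation p = 0.00052, adjusted p = 0.015) and r = 0.87, and in WT it had r = 0.75 (permutation p = 0.012, adjusted p = 0.057).

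The relations were also computed within the identifier run that held most tumors of a group. For WT that run held 9 of the same 10 tumors, so r could change little. In the 9 WT tumors of run 2, r was 0.95 for Ccl8 with Ccl11, -0.87 for Ccl8 with Cx3cr1, 0.89 for Ccl2 with Ccr2 and 0.86 for Ccl7 with Ccr2. In the 7 tumors of run 1 labelled PD-1cKO, r was 0.86 for Ccl7 with Ccl12, -0.76 for Ccl8 with Cx3cr1 and 0.51 for Ccl8 with Ccl11. For Ccl8 and Ccl2 no relation was detected, with r = -0.03 in WT (permutation p = 0.95, adjusted p = 0.95) and r = -0.60 in PD-1cKO as labelled (permutation p = 0.067, adjusted p = 0.24), where rho was -0.64 (permutation p = 0.054, adjusted p = 0.19). A difference in r between the groups was not tested.

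**Figure D5:**
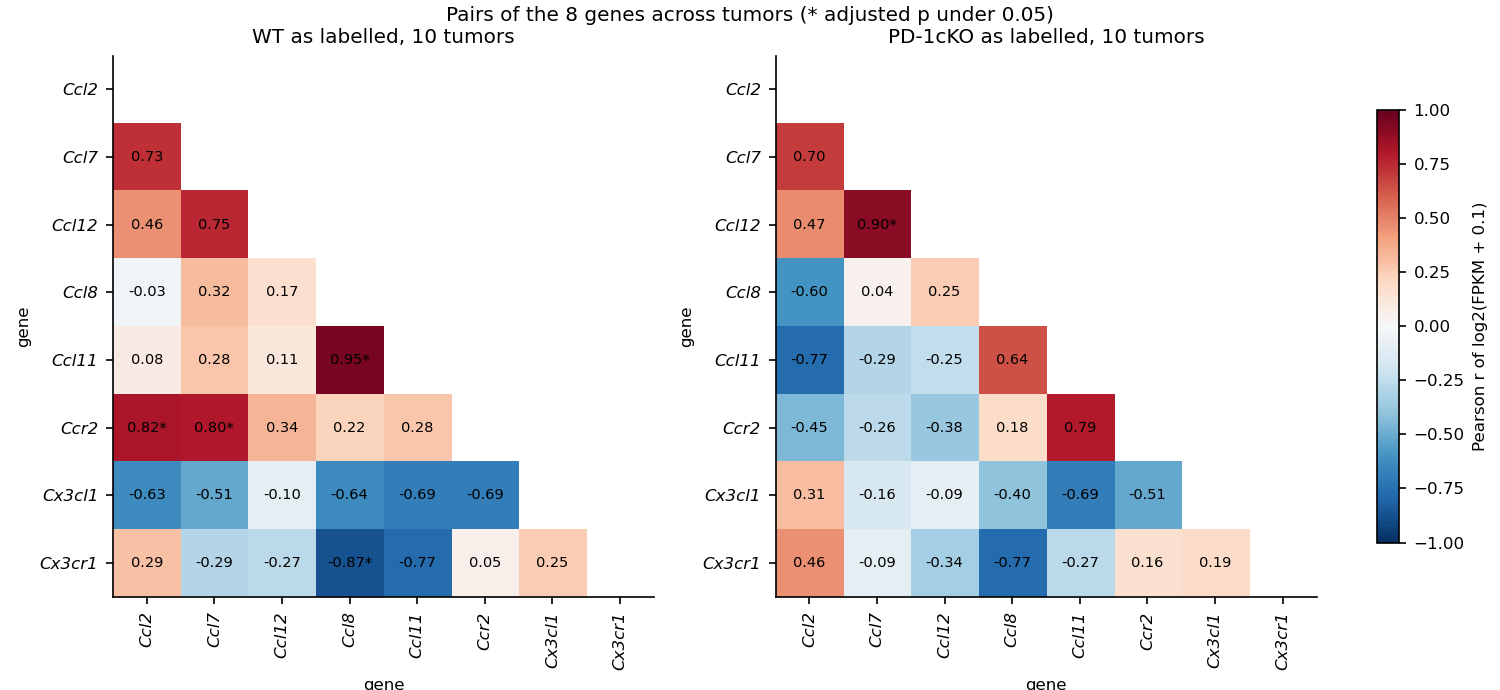
Pearson r of log2(FPKM + 0.1) for each pair of the 8 genes over the 10 WT tumors (left) and the 10 tumors labelled PD-1cKO (right), from blue at -1 to red at 1, with an asterisk where the adjusted p was under 0.05. In WT the pair Ccl8 and Ccl11 has 0.95 and the pair Ccl8 and Cx3cr1 -0.87.

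The pattern over the 8 group means was compared with that of 15192 genes by Pearson's r of log2(FPKM + 0.1), as a description only: the 8 points come from both studies, whose levels are not on a common scale, so the offset between the studies enters every r. Ccl8 was most like Il4ra (r = 0.994), the receptor chain for interleukin-4 and interleukin-13, followed by Pde7b and Cd4 (0.992 each). Ccr2 was most like the scavenger receptor Msr1 (0.999), Plek (0.998) and Lcp1 (0.996), and Cx3cr1 most like Pilra, Asb2 and P2ry13 (0.995 each). Ccl12 was most like Slamf9, I830077J02Rik and Milr1 (0.995 each), and Ccl11 had r = 0.981 with Pde4b and 0.980 with Tnfaip3. Ccl2 was most like Primpol and Nfyb (0.995 each) and Tes (0.992), Ccl7 most like Scube3 (0.996), Yipf4 (0.995) and Erp44 (0.994), and Cx3cl1 most like Rap2a (0.993), Gata3 and Serp1 (0.989 each). Between the members, Ccl2 and Ccl7 had r = 0.95, Ccl8 and Ccl11 0.91, and Ccl8 and Ccl2 -0.61.

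Within the antibody study Ccl8 means fell in the order PD-1 Ab day 15 (203 ± 95.1, SD, n = 5), PD-1 Ab day 11 (162 ± 44.0, n = 5), isotype day 15 (39.8 ± 5.51, n = 5), isotype day 11 (33.8 ± 11.0, n = 5), Baseline tumors (25.3, n = 3) and cultures (1.67, n = 3). The 2 PD-1 Ab groups overlapped each other, as did the 2 isotype groups, and isotype day 11 overlapped the Baseline tumors. For Cx3cr1 the order was PD-1 Ab day 15 (34.1 ± 10.6, n = 5), isotype day 11 (15.0 ± 5.75), PD-1 Ab day 11 (14.1 ± 3.61), isotype day 15 (14.1 ± 3.70), Baseline tumors (9.34) and cultures (0.0174). All neighbors in that order overlapped except Baseline tumors and cultures. After 1 dose Cx3cr1 had values of 9.79 to 19.2 FPKM, within the 5.59 to 20.1 of its isotype tumors.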

How the data were processed

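The authors prepared stranded total RNA libraries after removal of ribosomal RNA, used the Omicsoft aligner to place paired reads of 50 bases on mouse build B38, quantified Ensembl gene models and deposited FPKM for 48795 genes in 46 samples. Depth cannot be recovered from these FPKM values, so no count model was run. The authors' own test on counts was not used. Groups came from the sample labels.

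Testing was limited to genes whose mean reached 0.5 FPKM in any compared group and was done on log2(FPKM + 0.1) with limma 3.58.1 (lmFit and eBayes with trend, R 4.3.3), with only the compared groups in the fit. Adjustment was by Benjamini-Hochberg over all genes tested, and calls needed an adjusted p below 0.01 and a 2-fold change. Alternatives were another pseudocount, other filters and scalings, a fit without trend or with all 8 groups, array weights, a replicate block, identifier runs and leaving out each library. Pairs of genes were tested two-sided with 100000 permutations. The members and gene lists were chosen with earlier results of these data known. All 8 members were named, with other chemokine genes called at day 15 or in PD-1cKO and the 3 genes most like each member. A few genes that this rule or the lists hold are not reported here. Ccr8 at day 15 was added after its values were seen. Gene positions came from GENCODE on GRCm38 and upstream sequence from RefSeq on GRCm38.p6. Scripts were tested on simulated data.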

Additional observations from a re-analysis of the deposited data

Results flagged for a closer look

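In groups of 5 or 10 samples the highest or lowest value of each gene was compared with its nearest neighbor by Dixon's ratio, over 48 combinations of gene and group, of which chance flags about 1 in 20. A gap was found in 6 of them.

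PD-1 Ab day 11 replicate 1 had 99.0 FPKM of Ccl2 and 60.4 of Ccl7, far above the other 4 tumors of its group, and 17.8 of Cx3cl1, far below them. It also had the lowest Ccl8 of that group, 105 FPKM. WT replicate 6 had 55.4 FPKM of Ccl2, against at most 33.8 in the other WT tumors. WT replicate 5 had 319 FPKM of Ccl8, against at most 179. The tumor labelled PD-1cKO replicate 3 had 23.5 FPKM of Ccl12, against at most 12.6 in its group.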

How the results depend on the processing

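Of the fold changes of the 8 genes recomputed in the tested comparisons, 1092 of 1144 kept their direction and their side of the threshold. The built-in differences from the cultures are among them. At day 15 the count of 2 called members became 1 with no filter, no trend, all 8 groups in 1 fit or the replicate block, and 1 to 3 when single libraries were left out. In PD-1cKO as labelled the 2 became 1 with array weights (Ccl8 1.2, adjusted p = 0.0247 with limma) and 0 with identifier runs as a covariate, and stayed at 2 when single libraries were left out. Between Baseline tumors and cultures the count of 6, where 15.8% of genes passed, ranged from 4 to 7, with Ccl11 lost in 7 settings. That count includes Ccl12, Cx3cr1, Ccr2 and Ccl11, which entered only through the tumors, so nothing is read from it. Array weights gave 1 called member between Baseline and isotype day 15 tumors and 2 for the difference of the effects (Cx3cr1 1.76 and Ccr2 1.17), and median-of-ratios scaling gave 3 pairs in place of 1 in PD-1cKO as labelled. The cause was not tested.

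Signs turned for Ccl7 at day 15 (0.22 with array weights), Cx3cl1 at day 15 (-0.04 with upper-quartile scaling, -0.05 to 0.12 with libraries left out) and Ccr2 in PD-1cKO as labelled (0.10 and 0.11 with median-of-ratios and upper-quartile scaling, 0.51 with runs, -0.24 to 0.08 with libraries left out). They also turned for Ccl2 between isotype day 15 tumors and cultures (0.07, 0.03 and 0.04 with those scalings and the block, -0.09 to 0.07 with libraries left out), Ccl7 between Baseline tumors and cultures (-0.17 to 0.07), Ccr2 between Baseline and isotype tumors (-0.10 to 0.34) and the difference of the effects on Cx3cl1 (0.00 with upper-quartile scaling). None of these was called.

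Over all genes the 799 calls at day 15 ranged from 316 with the block to 1773 with array weights, and were 375 without PD-1 Ab replicate 3 and 1534 without replicate 5. The 1217 in PD-1cKO as labelled ranged from 0 with runs to 3217 with no fold limit, the 89 between Baseline and isotype tumors from 0 to 398, the 15 of the difference from 1 to 603, and the 0 at day 11 up to 22. With no fold limit the calls against cultures were 5621 and 5944 in place of 3231 and 2405.

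Equal replicate numbers did not pair samples: deviations of same-numbered samples correlated at -0.21 to 0.04 at day 15 and -0.19 to 0.11 in the tamoxifen study. With a block for the number, Cx3cr1 at day 15 gave an adjusted p of 0.0133 with limma. The read depth of each library is unknown, which limits the low values of Ccl12, Ccr2 and Cx3cr1 in culture.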
